A study of Mus musculus with 6 samples.

Results

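The genes described here build the adherens junction of choroid endothelial cells (ECs) and mark their surface. The 10 members were chosen by name: Cdh5 (VE-Cadherin), Cdh2 (N-cadherin), Cdh13 (T-cadherin), the catenins Ctnna1, Ctnnb1, Ctnnd1 and Jup, and the surface proteins Pecam1 (CD31), Emcn (endomucin) and Mcam (CD146). All 10 were among the 22026 gene symbols of the RNAseq files, and all 10 passed the minimum of a mean of 5 FPKM (sequenced fragments per length of transcript, scaled to the library) in at least 1 age, which left 12481 genes to test. The 2 groups were 129/B6 mice of postnatal day 5 (P5) and day 30 (P30), with no genetic change or drug under study, and 3 independent isolations each. Anaesthesia differed with age: the P5 pups were cooled (hypothermia), while for the P30 animals the paper states only that they were under anaesthesia. Every isolation pooled the eyes of 7 animals, and the P30 animals were of both sexes. A fluorescent antibody to VE-Cadherin was injected behind the eye of the living animal, at a lower amount in the P5 pups, the neural retina was removed, and the antibody-positive cells of the digested RPE/choroid were sorted. Cdh5 is therefore the gene of the sorting antigen, and the level of its transcript was measured in cells picked for its protein.

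Cadherins reach across the gap between neighbouring cells and bind each other outside the cell. Inside, the tail of a classical cadherin holds p120-catenin near the membrane and either β-catenin or plakoglobin farther along, and α-catenin links that complex to actin. VE-Cadherin is the main cadherin of endothelial junctions, N-cadherin is spread over the EC surface and takes part in contact with mural cells, and T-cadherin has no catenin-binding tail and is anchored by a lipid. CD31 and CD146 are immunoglobulin-type adhesion molecules, and endomucin is a sialomucin of capillary and venous ECs. The comparison of P5 with P30 asks how this junctional set differed before and after the eye gains mature vision.

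Of the 10 members, 3 fell (Cdh5, Ctnnb1 and Cdh2) and 1 rose (Emcn) from P5 to P30 at an adjusted p under 0.01 in limma. Among all genes tested, 10.7% fell and 8.51% rose by the same rule, 19.2% in all. No member passed with a change of 2-fold or more, while 11.7% of all genes tested did (5.82% lower and 5.89% higher), and the largest called change, that of Emcn, was 1.84-fold. The isolations of the 2 ages did not overlap for 7 members, 6 lower and 1 higher at P30, against 33% lower and 22% higher, or 55.1%, of all genes tested. The median log2 fold change (P30 minus P5) over all genes tested was -0.10. With any 1 P5 isolation left out, 0 members passed as lower, and the count was 2, 2 or 1 without P30 replicate 1, 2 or 3. Calls as lower over all genes also went from 1338 to 524, 327 or 370 without P5 replicate 1, 2 or 3. The 1 rise was lost without P5 replicate 2, where Emcn had an adjusted p of 0.0104 in limma at a log2 fold change of 0.89 against 0.88 with all isolations.

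**Figure D1:**
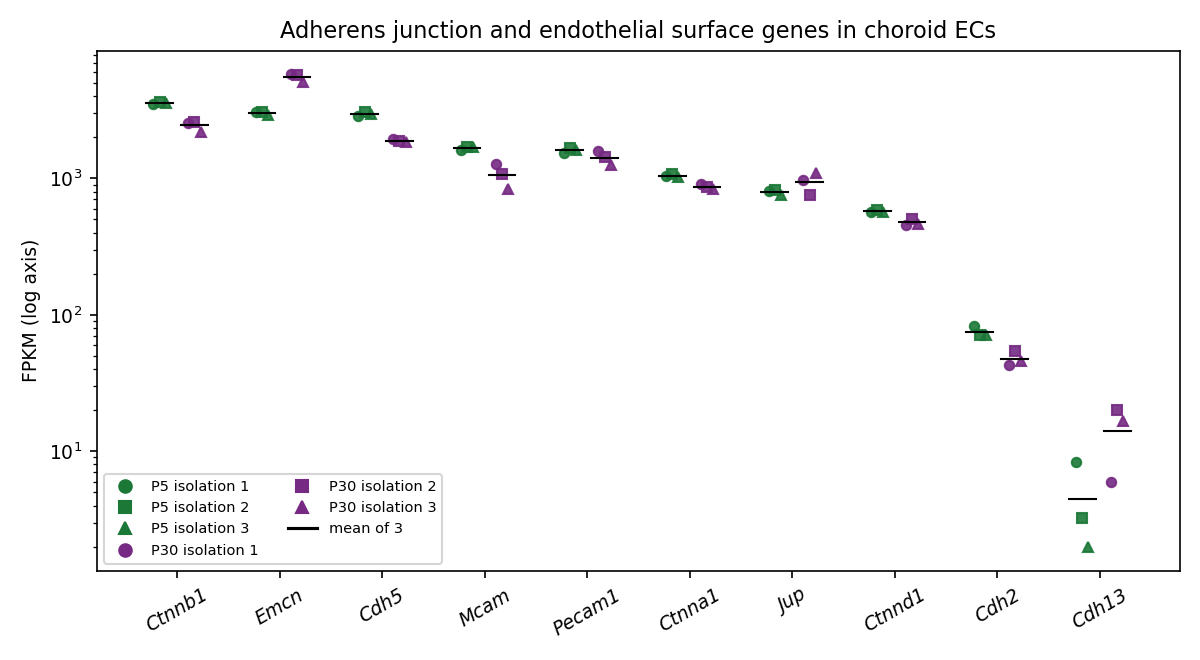
FPKM (log axis) of the 10 members in each isolation, P5 in green and P30 in purple, with a marker shape for each isolation and a black line at the mean of 3. Ctnnb1, Cdh5, Mcam, Ctnna1, Ctnnd1 and Cdh2 lay lower in every P30 isolation, Emcn lay higher in every one, and Cdh13 scattered most within each age.

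The start region is shown for Emcn, which rose, for Ctnnb1, which fell, and for Jup, whose protein takes the place of β-catenin and which did not pass the test. The 250 bases before the start are those that RefSeq gives for GRCm38.p6, where 5 of the 10 members had an entry (Emcn, Jup, Ctnnb1, Ctnnd1 and Mcam), and each of the 3 shown was matched exactly to mm9. Emcn lies at chr3:137003792-137004041 on the plus strand, where the last 11 bases belong to the first exon in GENCODE. Jup lies at chr11:100259105-100259354 on the minus strand, 27 bases before the GENCODE start, and Ctnnb1 at chr9:120842268-120842517 on the plus strand, within an intron of a longer annotated transcript. Each is written 5′ to 3′ along its gene. Capitals mark, on either strand, the letters CAGGAA of ETS factors, a family with many endothelial members, the related core CCGGAA, and the letters CCACCC of KLF factors.
Emcn: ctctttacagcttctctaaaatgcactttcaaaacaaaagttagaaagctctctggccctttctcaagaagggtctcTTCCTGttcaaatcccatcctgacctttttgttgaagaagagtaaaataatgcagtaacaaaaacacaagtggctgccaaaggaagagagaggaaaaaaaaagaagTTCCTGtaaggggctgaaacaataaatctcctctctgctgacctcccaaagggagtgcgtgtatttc
Jup: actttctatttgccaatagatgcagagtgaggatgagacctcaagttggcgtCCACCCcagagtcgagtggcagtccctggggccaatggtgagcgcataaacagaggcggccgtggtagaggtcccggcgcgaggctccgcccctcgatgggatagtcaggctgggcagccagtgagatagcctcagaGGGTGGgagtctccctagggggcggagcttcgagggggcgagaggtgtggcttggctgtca
Ctnnb1: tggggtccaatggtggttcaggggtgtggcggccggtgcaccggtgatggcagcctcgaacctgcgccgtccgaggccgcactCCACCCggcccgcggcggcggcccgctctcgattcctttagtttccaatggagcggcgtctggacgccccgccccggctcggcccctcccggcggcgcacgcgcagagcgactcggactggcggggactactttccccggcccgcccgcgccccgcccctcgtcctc
Emcn held CAGGAA at -173 to -168 and at -67 to -62 from the RefSeq start, both on the minus strand. At least 1 CAGGAA was present in 25.6% of 32536 RefSeq windows of the same length, and CCGGAA in 12.1%. Jup held CCACCC at -198 to -193 and, on the minus strand, at -61 to -56, and Ctnnb1 held it at -167 to -162, against 28.1% of all windows. RefSeq gives Ctnnb1 a second, overlapping window farther along (chromosome 9, 120842446 to 120842695 of mm9, 43 CpG), not shown, which held none of the motifs searched. None of the 3 windows held AGATAA, a core read by GATA-type zinc finger factors, which 3244 of all windows held. None held ACAAAG of SOX factors (16.5% of all windows), and Jup alone held TAAACA of FOX factors (12.0%). The windows also differed in base composition, with a GC content of 40.8% and 1 CpG for Emcn, 62.0% and 13 CpG for Jup, and 74.8% and 35 CpG for Ctnnb1. These matches describe letters and do not show that a factor binds.

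The libraries were those of ECs by their markers. All 16 endothelial check genes, among them Kdr, Tie1, Erg and Cldn5, were above 0 in every library. Their sum ran from 18084 to 20639 FPKM at P5 and from 24522 to 30945 at P30. In limma 4 of the 16 passed as higher at P30 and 1 as lower. Their median log2 fold change was 0.42, so the list was not level between the ages. Markers of other cells were also present and were mostly higher at P30. The 7 pericyte genes (none at 0, 0 of 7 past the test) summed to between 497 and 1765 at P5 and between 1872 and 6290.4 at P30, the 7 smooth muscle genes to between 85.9 and 175 and between 311 and 1084, the 7 fibroblast genes to between 742 and 1212 and between 1815 and 4557, and the 8 RPE genes to between 169 and 222 and between 557 and 3919.8. Of those tested, 2 of 5 smooth muscle, 1 of 7 fibroblast and 5 of 7 RPE genes passed as higher at P30 and 0 as lower. Photoreceptor genes (3 of 6 higher) went from 11.3 or less to between 41.0 and 382, and Schwann cell genes (1 of 6 higher) from between 12.9 and 53.0 to between 62.3 and 316. The 7 proliferation genes, Mki67 and Top2a among them, went from between 705 and 1270.3 to between 5.38 and 15.0. Libraries of the same age correlated at 0.990 to 0.993 at P5 and at 0.965 to 0.974 at P30 (Pearson correlation of log2(FPKM + 1)). In bulk RNA, fewer cells of a type and less RNA per cell cannot be told apart.

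The order of levels differed between the ages. Because FPKM is per length of transcript, levels may be compared between genes. At P5, Ctnnb1 stood highest, followed by Emcn and Cdh5, whose isolations overlapped, then Mcam and Pecam1, which also overlapped, and then Ctnna1, Jup, Ctnnd1, Cdh2 and Cdh13, each apart from the next. At P30, Emcn stood highest, clear of Ctnnb1 and Cdh5, while Pecam1, Mcam, Jup and Ctnna1 each overlapped with the next in that order. In both ages Cdh2 and Cdh13 were the lowest of the 10.

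Cdh5 (chromosome 8, 106625525 to 106668402 of mm9, plus strand) had an FPKM of 2878, 3069 and 2967 in P5 replicates 1, 2 and 3 and of 1943, 1874 and 1839.8 in P30 replicates 1, 2 and 3. Every P30 isolation was far below the lowest P5 isolation, and the spread within an age was small. The mean went from 2971 ± 95.4 (SD, n = 3) to 1885 ± 52.4 (SD, n = 3). The fall was 1.58-fold (log2 fold change -0.66, SE 0.09, 95% interval -0.87 to -0.44, adjusted p = 0.00205 in limma). In rank among all 22026 genes, Cdh5 moved from places 16 to 18 at P5 to places 79 to 87 at P30. Without P5 replicate 1, 2 or 3 the log2 fold change was -0.68, -0.63 or -0.66 and the adjusted p in limma 0.0108, 0.0188 or 0.0115. Set against the mean of the 16 endothelial check genes in each library, the log2 fold change of Cdh5 was -1.07 (adjusted p = 0.000442 in limma), with a median of all genes of -0.51 on that scale.

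Cdh2, the neural cadherin that ECs share with mural cells and neural tissue, was much lower than Cdh5. Its FPKM was 82.3, 71.46 and 71.65 at P5 and 42.6, 54.7 and 45.6 at P30, on chromosome 18 (16747386 to 16967755 of mm9, minus strand). The ages did not overlap, and the fall was 1.57-fold (log2 fold change -0.65, SE 0.14, adjusted p = 0.00999 in limma), just inside the limit. Its adjusted p was 0.0481, 0.0403 or 0.0360 without P5 replicate 1, 2 or 3 and 0.0191 or 0.0226 without P30 replicate 1 or 3 in limma. For every 100 FPKM of Cdh5 there were 2.57 ± 0.286 (SD, n = 3) of Cdh2 at P5 and 2.58 ± 0.366 (SD, n = 3) at P30, on FPKM + 1. The 2 classical cadherins thus kept overlapping proportions in both ages (log2 difference of the ratio 0.00379, 95% interval -0.35 to 0.36, adjusted p = 0.984 in limma). P30 replicate 2, which had the highest pericyte (6290.4), fibroblast (4557) and smooth muscle (1084) sums, also had the highest Cdh2 of its age. Between the ages, these 3 sums were higher at P30 while Cdh2 was lower. The part of such cells in the level of Cdh2 was not tested.

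Cdh13 (chromosome 8, 120807633 to 121848821 of mm9, plus strand), which encodes a receptor for adiponectin and LDL, had the lowest level of the members. It was 8.30, 3.23 and 1.98 FPKM at P5 and 5.98, 19.98 and 16.5 FPKM at P30. The ages overlapped, as P30 replicate 1 lay below P5 replicate 1, and Cdh13 reached the minimum for the test only through P30. The log2 fold change was 1.48 (SE 0.57, 95% interval 0.15 to 2.82) and did not pass in limma (adjusted p = 0.0749). Within each age, the isolations came in the same order for Cdh13 as for the pericyte list, which summed to 1765, 933 and 497 at P5 and to 1872, 6290.4 and 3857 at P30. The part of pericytes in Cdh13 was not tested.

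**Figure D2:**
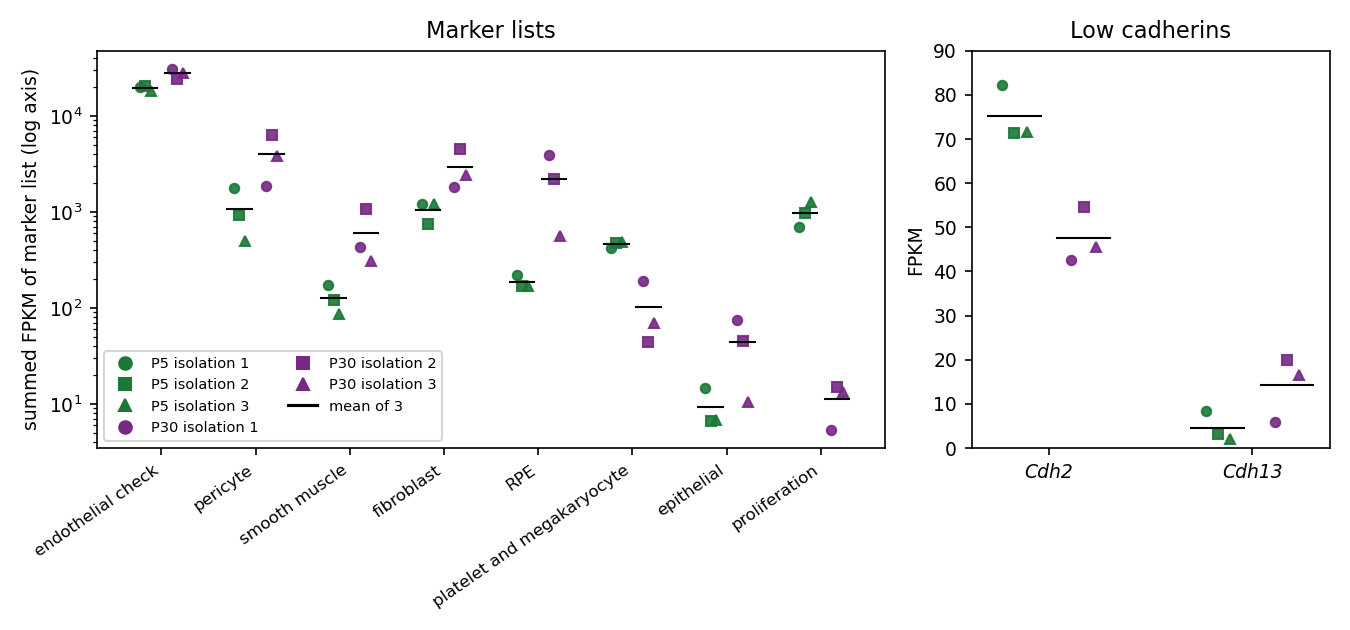
Left, summed FPKM (log axis) of 8 marker lists in each isolation. Right, FPKM of Cdh2 and Cdh13 in the same isolations. Black lines are means of 3. The pericyte sums and Cdh13 have the same order of isolations within each age, and the proliferation sums drop from 705 or more at P5 to 15.0 or less at P30.

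Ctnnb1 encodes β-catenin, which binds the cadherin tail and is also the transcriptional partner of TCF and LEF factors in Wnt signalling. It was the highest member at P5, with 3509, 3641 and 3545 FPKM against 2559.6, 2576 and 2189 FPKM at P30 (chromosome 9, 120838334 to 120869625 of mm9, plus strand). Every P30 isolation was lower than every P5 isolation. The fall was 1.46-fold (log2 fold change -0.55, SE 0.11, adjusted p = 0.00749 in limma), and the rank went from places 10 to 13 to places 50 to 59. Leaving out any 1 isolation kept the log2 fold change between -0.59 and -0.47 and put the adjusted p in limma between 0.0120 and 0.0442. Exons of Ulk4 on the opposite strand share 240 bases with Ctnnb1, 4.71% of its exonic length, and whether the authors' values used strand is not given in the sources used here.

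Jup encodes plakoglobin (γ-catenin), the homologue that takes the place of β-catenin on the cadherin tail and also sits in desmosomes. Its FPKM was 814, 819.7 and 754 at P5 and 968, 754 and 1092 at P30 (chromosome 11, 100230272 to 100259077 of mm9, minus strand). P30 replicate 2 lay among the P5 isolations while the other two P30 isolations lay above them. The log2 fold change was 0.22 (SE 0.14, 95% interval -0.11 to 0.56), not past the limit in limma (adjusted p = 0.253). Its sign turned to -0.06 with quantile normalization and to -0.20 against the endothelial check genes. The median of all genes on those scales was -0.08 and -0.51. Desmosomal partners were nearly missing: of 11 desmosome genes, 4 were listed at 0 in all 6 libraries, and 10, every one but Perp, were at 1.68 FPKM or less. Of the 6 epithelial genes, Epcam and Krt19 were listed at 0 in all libraries and the sum went from between 6.70 and 14.6 to between 10.6 and 75.9 FPKM. The part of epithelial cells in the level of Jup was not tested.

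Ctnna1 encodes αE-catenin, the link to actin, and Ctnnd1 encodes p120-catenin, which holds cadherins at the membrane. Ctnna1 (chromosome 18, 35278542 to 35414427 of mm9, plus strand) had 1039, 1071 and 1017 FPKM at P5 and 903, 862 and 842 FPKM at P30. Ctnnd1 (chromosome 2, 84440228 to 84490922, minus strand) had 564, 586 and 567 FPKM at P5 and 458, 502 and 466 FPKM at P30. Both were lower in every P30 isolation, by amounts small beside that of Cdh5. Neither passed the limit in limma, with log2 fold changes of -0.26 (SE 0.09, adjusted p = 0.0461) for Ctnna1 and -0.27 (SE 0.09, adjusted p = 0.0424) for Ctnnd1. Both did pass in limma when all libraries were rescaled to the same sum of FPKM (adjusted p = 0.00596 and 0.00418), where the median of all genes was -0.27.

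Proportions within a library do not depend on how libraries are scaled to each other, so each member was also divided by Cdh5 (FPKM + 1 in both). Of 9 such ratios, 5 were higher at P30 at an adjusted p under 0.01 in limma and 0 were lower. Relative to Cdh5, 36.4% of all genes tested were higher at P30 and 3.12% lower, with a median log2 difference of 0.56. Among those that passed, Emcn rose most, from 1.06, 0.990 and 0.986 per Cdh5 at P5 to 2.97, 3.03 and 2.78 at P30, which is 2.89-fold (log2 difference 1.53, SE 0.10, adjusted p = 6.8e-05 in limma). It was also the only ratio to pass in every alternative run (12 of 12). Jup per Cdh5 went from 0.283, 0.267 and 0.254 to 0.498, 0.403 and 0.594, which is 1.84-fold (log2 difference 0.88, SE 0.15, adjusted p = 0.00200 in limma). Both differences were above the median over all genes.

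The other 3 ratios that passed lay below that median. The log2 difference was 0.47 for Pecam1 (SE 0.10, adjusted p = 0.00646), 0.39 for Ctnna1 (SE 0.08, adjusted p = 0.00573) and 0.39 for Ctnnd1 (SE 0.09, adjusted p = 0.00847) in limma. Ctnna1 per Cdh5 was 0.361, 0.349 and 0.343 at P5 and 0.465, 0.460 and 0.458 at P30, the tightest of the set at P30. Ctnnb1 per Cdh5 was 1.22, 1.19 and 1.19 at P5 and 1.32, 1.37 and 1.19 at P30, so that β-catenin and VE-Cadherin transcripts stayed in overlapping proportion (log2 difference 0.11, 95% interval -0.13 to 0.35, adjusted p = 0.399 in limma). Mcam per Cdh5 likewise overlapped between ages (log2 difference -0.02, 95% interval -0.35 to 0.31, adjusted p = 0.927 in limma). Cdh13 per Cdh5 separated the ages (log2 difference 2.14, SE 0.59) without passing (adjusted p = 0.0161 in limma), and passed without P30 replicate 1 (2.65, adjusted p = 0.00478). The number of ratios that passed fell to 2, 1 or 1 without P5 replicate 1, 2 or 3, and to 2 without P30 replicate 2.

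**Figure D3:**
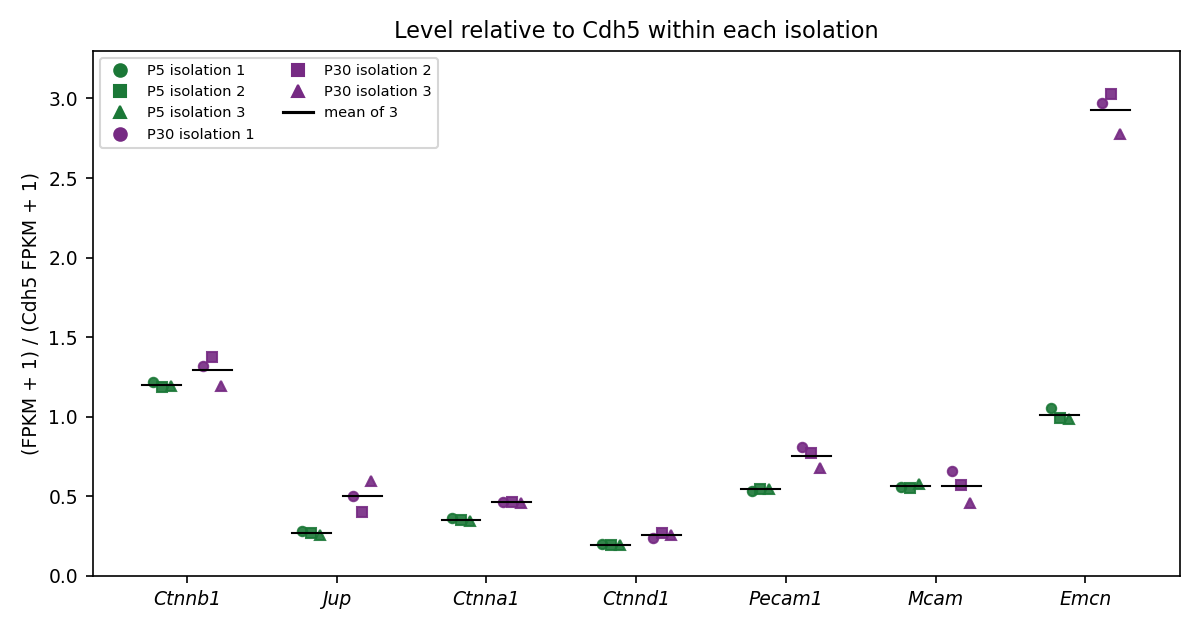
Level of 7 members divided by Cdh5 within each isolation (FPKM + 1 in both, linear axis from 0), P5 in green and P30 in purple, black lines at means of 3. Emcn went from about 1 per Cdh5 to between 2.78 and 3.03, Jup, Ctnna1, Ctnnd1 and Pecam1 also lay higher in every P30 isolation, and Ctnnb1 and Mcam overlapped.

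Summed over both classical cadherins, Cdh5 and Cdh2, the FPKM was 2960.2, 3140.1 and 3038 at P5 and 1985, 1928 and 1885 at P30. Summed over the 4 catenins it was 5925, 6118 and 5884 at P5 and 4888, 4694 and 4589 at P30. Both sums were lower in every P30 isolation, the catenins by the smaller proportion. Relative to Cdh5 alone, the median log2 difference of all genes tested was 0.56, so a rise against it was common among all genes. Catenins per classical cadherin were 2.002, 1.95 and 1.94 at P5 and 2.46, 2.43 and 2.43 at P30, with means of 1.96 ± 0.0347 (SD, n = 3) and 2.44 ± 0.0163 (SD, n = 3). The ages did not overlap (p = 0.1 in an exact permutation test, two-sided, which cannot go lower with 3 isolations against 3, and 0.117 after Benjamini-Hochberg adjustment over 7 such measures). Plakoglobin made up 18.8%, 18.4% and 17.5% of the sum of plakoglobin and β-catenin at P5 and 27.4%, 22.7% and 33.3% at P30. Its share was higher in every P30 isolation, with a wider spread among them, and the same exact test gave the same p of 0.1.

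Emcn, the endothelial sialomucin whose CpG-poor start region is printed above, was the member that rose. Its FPKM was 3042, 3039 and 2925 at P5 and 5778, 5676 and 5116 at P30 (chromosome 3, 137004031 to 137095149 of mm9, plus strand). The ages were far apart, with P30 the higher. The mean went from 3002 ± 66.3 to 5523 ± 357 (SD, n = 3), a rise of 1.84-fold (log2 fold change 0.88, SE 0.11, 95% interval 0.63 to 1.12, adjusted p = 0.00106 in limma). Its rank among all genes was between places 15 and 19 in all 6 libraries, and with quantile normalization, which gives genes of like rank like values, its log2 fold change was -0.01 (adjusted p = 0.943 in limma). Against the endothelial check genes it was 0.46 (adjusted p = 0.0134 in limma), with a median of all genes of -0.51 on that scale.

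Pecam1 encodes CD31, which ECs share with platelets and leukocytes. Its FPKM was 1539, 1680.3 and 1615 at P5 and 1575, 1443 and 1243 at P30 (chromosome 11, 106515531 to 106611942 of mm9, minus strand). P30 replicate 1 lay within the range of P5, and the other two P30 isolations lay below it. The log2 fold change of -0.19 (SE 0.12, 95% interval -0.46 to 0.08) did not pass in limma (adjusted p = 0.230). It was -0.58 with quantile normalization (adjusted p = 0.00432) and -0.61 against the endothelial check genes (adjusted p = 0.00619), both past the limit in limma. The median of all genes on those scales was -0.08 and -0.51. Relative to the median, Pecam1 was at -0.09 as deposited, -0.50 with quantile normalization and -0.09 against the endothelial check genes. The 7 platelet and megakaryocyte genes ran from 423 to 483 in summed FPKM at P5 and from 44.1 to 191 at P30, nearly all of it Pf4 at P5, while Itga2b was between 2.06 and 5.61 in all libraries and Gp6 was listed at 0 throughout. Gp1bb of the same list went the other way, from 6.94, 4.75 and 2.02 to 43.4, 13.7 and 8.66. The 7 haematopoietic genes summed to between 714 and 927 at P5 and between 360.1 and 860.1 at P30. Of these, 2 (Ptprc and Laptm5) passed as lower at P30 in limma and 0 as higher, and Pf4 of the platelet list also passed as lower. The part of blood cells in the level of Pecam1 was not tested.

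Mcam encodes CD146, an adhesion molecule of ECs that pericytes and smooth muscle cells also carry. It had 1604, 1690.2 and 1708 FPKM at P5 and 1275, 1072 and 836 FPKM at P30 (chromosome 9, 43942552 to 43950810 of mm9, plus strand). All P30 isolations lay below P5, but they were widely spread, with a coefficient of variation of 20.7% against 3.33% at P5. The log2 fold change of -0.67 (SE 0.16), a size like that of Cdh5, did not pass in limma (adjusted p = 0.0136). Without P30 replicate 1 it did (log2 fold change -0.82, adjusted p = 0.00610 in limma). The P30 isolation with the lowest pericyte sum, replicate 1 (1872), had the highest Mcam. Replicate 2, with the highest sum (6290.4), did not have the lowest, which was that of replicate 3 (3857). The part of pericytes in the level of Mcam was not tested. Exons of Gm10687 on the opposite strand share 17 bases with Mcam.

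**Figure D4:**
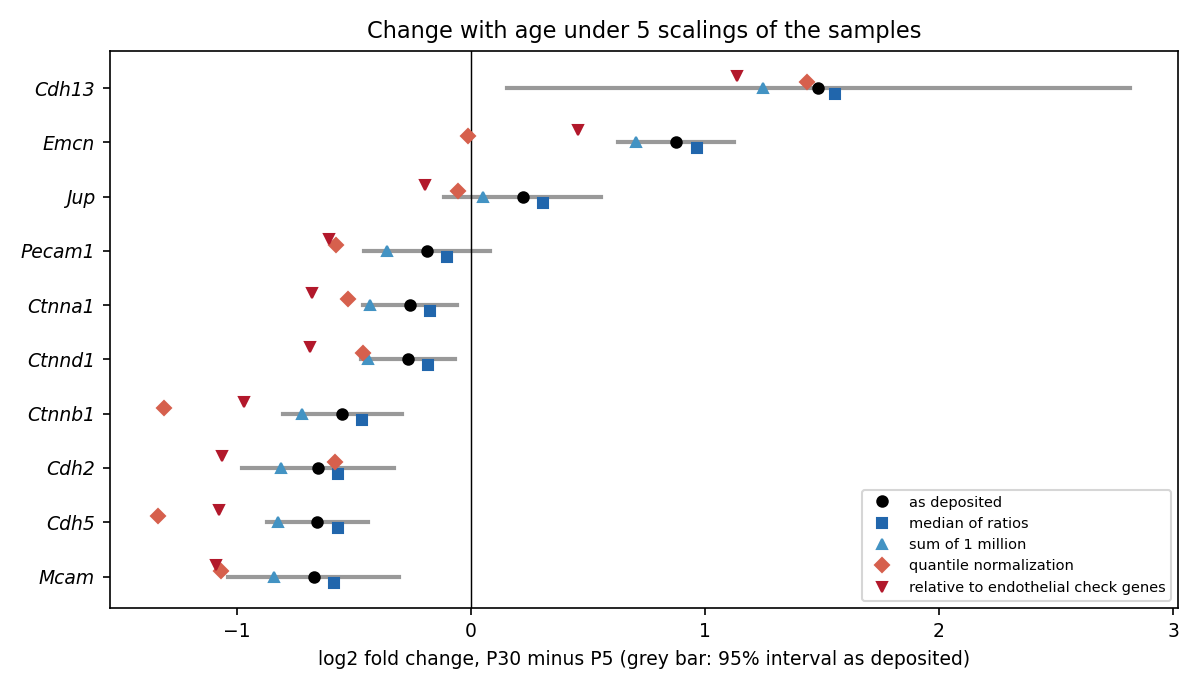
Log2 fold change (P30 minus P5) of each member in limma, with the values as deposited (black, grey bar for the 95% interval) and under 4 other scalings of the libraries. Cdh5, Ctnnb1, Cdh2, Mcam, Pecam1, Ctnna1 and Ctnnd1 were lower at P30 under all 5, Emcn was at -0.01 with quantile normalization, and Jup crossed 0.

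Beyond the members, 5 lists of junction and surface genes held 115 genes of the files, of which 94 were tested, 16 were higher and 14 lower at P30 (31.9% called, against 19.2% of all genes tested). The lists were chosen with earlier results of these data known, so this share is not independent support. It includes Cdh10 and Perp, which reached the minimum for the test in only 1 age. Among lists with more than 1 gene tested, the share was highest for other endothelial surface genes (46.7%). Among other cadherins, protocadherins and nectins, 3 of 14 tested fell and 1 rose (28.6% called), and the list's median log2 fold change was -0.21. Pcdh12, an endothelial protocadherin, fell from 204 ± 20.9 to 66.6 ± 2.84 (SD, n = 3) in FPKM (log2 fold change -1.60, adjusted p = 0.000168 in limma). Pcdh17 fell from 101, 94.7 and 167 to 33.0, 59.95 and 39.8 (log2 fold change -1.43, adjusted p = 0.00728) in limma. Cdh10, the other gene called lower, had 21.0 ± 2.04 FPKM at P5 and 3.89 ± 2.06 at P30 and reached the minimum for the test only through P5. Pvr, a nectin-like receptor named here after its value was seen, rose from 103 ± 15.4 to 210.2 ± 10.2 (log2 fold change 1.03, adjusted p = 0.00112 in limma). Cdh1, the epithelial cadherin, was between 0.46 and 3.44 FPKM in all libraries.

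Over all genes tested, 19.2% were called (10.7% lower and 8.51% higher), and the median log2 fold change was -0.10. Of the catenin relatives and actin linkers, 4 of 20 tested fell and 0 rose (20% called, near the share of all genes), with a median of -0.18. They were Lpp (log2 fold change -1.28), a zyxin relative at cell contacts, Ctnnbip1 (-0.82), which binds β-catenin, Evl (-0.78), an Ena/VASP protein, and, named after its value was seen, Ablim1 (-0.71), an actin-binding LIM protein, with adjusted p between 0.00368 and 0.00797 in limma. Of the regulators of VE-Cadherin, 2 of 29 tested rose and 5 fell (24.1% called), with a median of -0.15. Ptprb, the phosphatase VE-PTP that associates with VE-Cadherin, rose from 653 ± 99.2 to 1282 ± 113 FPKM (log2 fold change 0.98, adjusted p = 0.00179 in limma). S1pr1, a sphingosine-1-phosphate receptor that steadies endothelial junctions, rose from 528 ± 26.4 to 1242 ± 40.9 (log2 fold change 1.23, adjusted p = 0.000183 in limma). Yes1, a Src family kinase, fell from 552 ± 52.2 to 277 ± 34.6 (log2 fold change -0.995, adjusted p = 0.00114 in limma). The other falls, named after their values were seen, were those of the kinase Fyn (-0.59), the sheddase Adam10 (-0.82) and the exchange factors Tiam1 (-0.78) and Vav3 (-0.65).

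Of the 30 other endothelial surface genes, 12 were higher, 2 were lower and 16 did not pass (46.7% called), and the median log2 fold change was 0.44. Ly6a rose from 234 ± 14.3 to 1507 ± 191 FPKM (log2 fold change 2.68, adjusted p = 5.7e-05) and Ly6c1 from 224 ± 11.7 to 1001 ± 194 (2.14, adjusted p = 0.000183), both GPI-anchored surface proteins, in limma. Aplnr, the apelin receptor, fell from 1321 ± 182 to 83.8 ± 1.36 (log2 fold change -3.95, adjusted p = 2.6e-05 in limma), and Cd93, named after its value was seen, had a log2 fold change of -1.12. In the desmosome list only Perp reached the minimum for the test, and only through P30, with 0.380 ± 0.658 FPKM before and 14.4 ± 3.71 then, so that its call as higher carries no weight of its own.

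Over the 6 libraries, the genes whose centred log2(FPKM + 1) profile lay closest to that of Cdh5 included Cops5, a subunit of the COP9 signalosome (root mean square difference 0.0335), and Copz1, a subunit of the COPI coat (0.0378). Both are genes of general cell use. Cops5, for instance, went from 241 ± 12.7 to 153 ± 4.41 FPKM (SD, n = 3).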

How the data were processed

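RNA of sorted choroid ECs was sequenced by the authors on a HiSeq2000 from TruSeq libraries, 3 isolations at P5 and 3 at P30. Reads were processed with CASAVA 1.8.2 and FastQC, per the labels, aligned to mm9 with TopHat at default parameters, and turned into FPKM by CuffLinks, corrected for GC and scaled to the upper quartile. The deposited FPKM files hold 1 value per gene symbol and sample. Other versions and the annotation are not given in the sources used here. The authors' own test ran DESeq2 on read counts, which were not used here. The design assumed FPKM, and no column was left unmapped.

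From the deposited FPKM, log2(FPKM + 1) was analysed in R 4.3.3 by the linear model of limma 3.58.1 with a mean-variance trend and no block, over all 12481 genes with a mean of at least 5 FPKM in at least 1 age, and p-values were adjusted over all of them (Benjamini-Hochberg). Fold changes are on that scale and understate those of low genes. Limits were an adjusted p of 0.01 and, where stated, 2-fold in mean FPKM + 1. Ratios to Cdh5 were fitted the same way after Cdh5 was subtracted in each library. Single measures were compared by exact two-sided permutation tests. The fit was also run on simulated data, but only with planted changes larger than any called change of a member. That run therefore does not bear on changes of the size reported here. Depth is unknown: in no pair of libraries did over 3.67% of genes under 5 FPKM share a ratio bin of 0.05 (log2), so no steps of single reads were seen, and no counting interval is given. Positions are from GENCODE for mm9 (NCBIM37). Python 3.11.15 and pandas 2.3.3 drew the figures.

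The members and lists were chosen with earlier results of these data known. Named genes were all members, the 3 genes of each list with the largest called change (or highest FPKM), and the 3 nearest profiles to Cdh5, of which 1 is not reported here. Isolations are pools of separate animals. Alternatives were other pseudocounts, minimum values, scalings and trends, a replicate block, and each isolation left out.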

Additional observations from a re-analysis of the deposited data

How the results depend on the processing

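Over 17 alternatives, the log2 fold changes of the 10 members kept their direction and their side of the limit in 128 of 170 cases, lost a call in 27, gained a call in 12 and changed sign in 3. The sign changes were Emcn at -0.012 and Jup at -0.056 with quantile normalization, and Jup at -0.20 against the endothelial check genes. In quantile normalization the change of Emcn follows from its nearly unchanged rank. Against the endothelial check genes, the sign change of Jup follows from the shift of all genes. Relative to the median of all genes, Jup was at 0.32 both there and as deposited. Pecam1 (-0.09), Ctnna1 (-0.17), Ctnnd1 (-0.17) and Mcam (-0.58), which gained a call there, also kept their place relative to that median. For the remaining changes the cause was not tested.

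The number of members lower at P30 was 3 as reported, 1 with a minimum mean of 1 FPKM, 1 with no minimum, 1 with no trend, 7 with quantile normalization, 6 with libraries rescaled to the same sum, 7 against the endothelial check genes, and between 0 and 2 with an isolation left out. The number higher was 0 with quantile normalization and 0 against the endothelial check genes, and between 0 and 1 with an isolation left out. By at least 2-fold, 3 were lower with quantile normalization and 3 against the endothelial check genes, in place of 0. In the 5 lists together, 14 genes were lower as reported, 22 with quantile normalization, 25 with the same sum, 30 against the endothelial check genes, and between 5 and 15 with an isolation left out. The number higher was 10 against the endothelial check genes, and between 9 and 16 with an isolation left out. Kdr, Flt1, Tie1, Tek, Esam, Robo4, Icam2 and Eng are both endothelial check genes and genes of these lists. Against the check genes they are therefore set partly against themselves, and those counts are not independent of the reference. Scaling to the same sum or against the endothelial check genes shifts every gene. The median log2 fold change of all genes went from -0.10 to -0.27 with the same sum and to -0.51 against the endothelial check genes. The share of calls that were higher at P30 went from 44.2% to 26.2% and 15.2%. With quantile normalization, which does not shift all genes alike, 1112 of 12487 genes tested were higher and 1500 lower, with a median of -0.08. The log2 fold change of Cdh5 was then -1.34, or -1.26 relative to the median of all genes, and that of Emcn 0.069 relative to it.

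The replicate numbers did not pair the samples, as the deviations of same-numbered isolations correlated at -0.06, -0.09 and -0.03. With the replicate block, 1 member was lower and 1 higher (Cdh5 and Emcn, adjusted p = 0.0099975 and 0.00473 in limma), and 2 ratios to Cdh5 were higher in place of 5. The ratios to Cdh5 that were higher numbered between 1 and 4 with an isolation left out. Of the 4 ratios that did not pass, those of Ctnnb1 and Cdh13 kept their sign and the other two moved across 0: Cdh2 per Cdh5 was -0.00598 with a pseudocount of 0.1 and between -0.10 and 0.10 with an isolation left out, and Mcam per Cdh5 was between -0.14 and 0.13. Among all genes, 1062 were higher and 1338 lower as reported, 707 and 708 with the replicate block, 894 and 2517 with the same sum, 577 and 3214 against the endothelial check genes, and 588 and 524, 430 and 327, or 453 and 370 without P5 replicate 1, 2 or 3. Precision is limited by 3 isolations per age and by the unknown depth.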
